A study of Oryza sativa Japonica Group with 3 samples.

Results

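Among the 55986 loci measured in rice seeds, 75 were nearly silent in the dry seed, present after a day in water, and at a similar level a day later. They were chosen by their own values: under 1 FPKM at 0 h, at 10 FPKM or more at 24 h, and with a ratio of the 48 h to the 24 h level between 0.67 and 1.5. FPKM counts sequenced fragments relative to transcript length and to the size of the library, and the isoforms of a locus were summed. The seeds were of Jiucaiqing, a landrace of japonica rice, and were kept in distilled water at 30 °C. The 0 h group was the dry seed, the 24 h group the imbibed seed and the 48 h group the germinated seed. Each was 1 library made from 3 biological replicates combined, so no replicate error exists, neither p-values nor SDs could be had, and all differences below are between libraries. Stage and library preparation cannot be told apart.

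A dry cereal seed carries stored messenger RNA, laid down while the grain matured, and uses it when water first enters. Germination then brings new transcription in the embryo and in the aleurone, the living outer layer of the endosperm. The embryonic organs elongate until they break the seed coat. These libraries were enriched for poly(A) RNA, so newly made transcripts and stored ones that gained a longer tail cannot be told apart. Whole seeds were sampled, so more cells of a type and more RNA per cell cannot be told apart. The locus IDs come without gene names in the files, and none of the 75 had a match in the reference table. No role is given for that reason, chromosomes are those written in the IDs, and the tissue could not be checked against marker genes.

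The 75 loci held 0.00366% of the summed FPKM at 0 h, 0.417% at 24 h and 0.462% at 48 h. Their median level was 0.37 FPKM in the dry seed and 18.3 FPKM in both later libraries. Levels ran from 0 to 0.99 FPKM at 0 h, from 10.2 to 373 FPKM at 24 h, and from 8.16 to 462 FPKM at 48 h. Most were of modest abundance: 44 lay under 20 FPKM at 24 h, 24 between 20 and 50 FPKM, and 7 at 50 FPKM or more. On the log2(FPKM + 1) scale the median difference of 24 h and 0 h was 3.78, against 0.06 over the 20915 loci that reached 1 FPKM in any library. All 75 were at least 2-fold higher at 24 h on that scale, as the rule fixes, where 17.7% of the 20915 loci were. All 75 were likewise at least 2-fold higher at 48 h than at 0 h, against 27.5% of the 20915. All of the 75 passed the filter of 1 FPKM, through the libraries in which they were high. These values chose the loci and are given as a description.

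**Figure D1:**
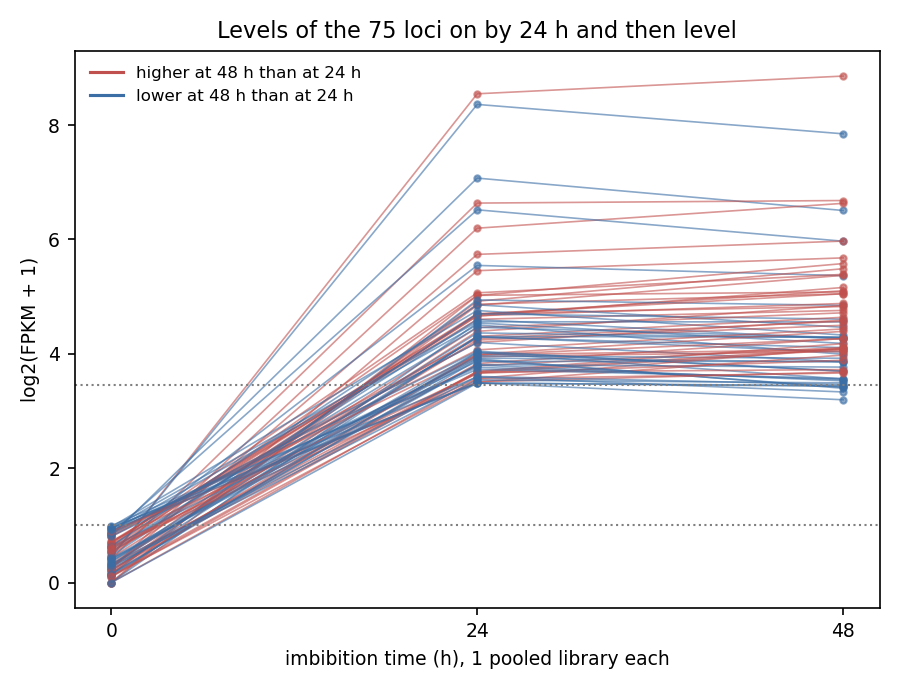
Level of each of the 75 loci as log2(FPKM + 1) against imbibition time in hours, with 1 line per locus and 1 pooled library per time point. Dotted lines mark 1 and 10 FPKM; 39 lines go up slightly from 24 h to 48 h and 36 go down, within the band of ratios that defines the set.

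The level of the set was unevenly shared among its loci. LOC_Os10g40480, on chromosome 10, stood at 0.36, 373 and 462 FPKM in the dry, imbibed and germinated seed, the order used throughout. It ranked 130th of all loci at 24 h and 86th at 48 h, and alone held 15.4% and 18.7% of the summed level of the 75. LOC_Os02g56700 on chromosome 2 was at 0.37, 328 and 229 FPKM, ranking 152nd at 24 h and 228th at 48 h. Both were thus among the most abundant loci of the imbibed and the germinated seed while lying under 1 FPKM in the dry seed. Together they held 28.9% of the set's sum at 24 h and 28.0% at 48 h, and the 10 most abundant of the 75 held 52.3% and 50.2%. LOC_Os03g53860 on chromosome 3 was the other locus above 100 FPKM at 24 h, at 0.76, 134 and 89.8 FPKM.

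The next loci by mean level of 24 h and 48 h had means between 40 and 100 FPKM. LOC_Os10g40720 was at 0.33, 98.4 and 102 FPKM. LOC_Os10g40730, the next ID on chromosome 10, was at 0.19, 72.3 and 98.1 FPKM. LOC_Os03g01260 was at 0.81, 90.6 and 61.6 FPKM. The first of these was almost even over the second day, while the other two differed more over that day and in opposite directions, with ratios of 1.36 and 0.68. LOC_Os03g25280 was at 0.18, 52.4 and 61.7 FPKM. LOC_Os02g11900 was listed at 0 in the dry seed and stood at 42.8 and 50.2 FPKM later. LOC_Os03g05500 was at 0.54, 45.7 and 40.2 FPKM. These 3 lay well inside the band, with ratios of 1.18, 1.17 and 0.88.

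The remaining loci of the 20 with the highest mean were mostly higher at 48 h than at 24 h. LOC_Os06g48355 was listed at 0 at 0 h and was at 31.4 and 46.7 FPKM at 24 h and 48 h. LOC_Os05g03190 was at 0.59, 32.5 and 40.9 FPKM. LOC_Os06g27560 was at 0.13, 29.2 and 43.9 FPKM. The first and the last of these sit at the upper edge, with ratios of 1.49 and 1.4997. LOC_Os02g18410 was at 0.11, 27.8 and 40.4 FPKM. LOC_Os09g25860 was at 0.47, 31.5 and 32.8 FPKM. LOC_Os04g42620 was at 0.21, 28.2 and 32.1 FPKM. The middle one of these was close to even, with a ratio of 1.04. LOC_Os11g47550 was at 0.57, 24.3 and 34.7 FPKM. LOC_Os01g55510 was at 0.62, 24.8 and 33.4 FPKM. LOC_Os09g16920 was at 0.10, 29.7 and 27.8 FPKM. Only the last of these was lower at 48 h. LOC_Os03g10040 was at 0.41, 24.8 and 32.1 FPKM, and LOC_Os12g02080 was at 0.53, 24.4 and 28.4 FPKM. These 20 loci held 63.8% of the set's sum at 24 h and 64.2% at 48 h, and the other 55 the rest.

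**Figure D2:**
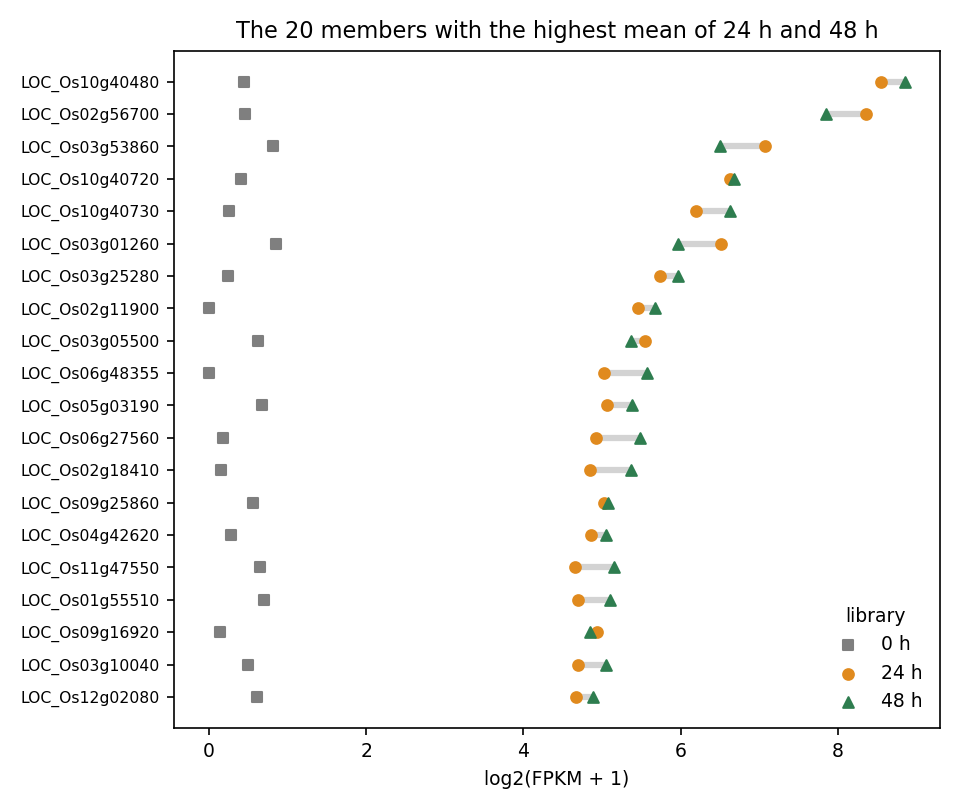
Levels at 0 h, 24 h and 48 h of the 20 loci with the highest mean of 24 h and 48 h, as log2(FPKM + 1), 1 pooled library per symbol. In each locus the 24 h and 48 h symbols lie close together and far from the 0 h symbol, and the range runs from LOC_Os10g40480, at 373 and 462 FPKM, to LOC_Os12g02080, at 24.4 and 28.4 FPKM.

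Within the band the 75 loci spread widely and did not gather at an even ratio. The ratio of 48 h to 24 h had a median of 1.03, with quartiles at 0.862 and 1.26. It was between 0.67 and 0.8 in 15 loci, between 0.8 and 1 in 21, between 1 and 1.2 in 14, and between 1.2 and 1.5 in 25. Only 19 of the 75 lay within 0.9 and 1.1. The most even loci, picked after their values were seen, were LOC_Os01g44110, at 13.59 FPKM on the first day and 13.58 FPKM on the second, LOC_Os07g48550, at 22.59 and 22.54 FPKM, and LOC_Os09g32670, at 18.73 and 18.57 FPKM. They were at 0.75, 0.92 and 0.07 FPKM in the dry seed. The word level thus covers loci that were up to 1.5-fold apart between the later libraries, without replicates to say how far apart libraries of 1 stage would lie.

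The thresholds cut through a continuous range. The loci just inside the ceiling of 1 FPKM at 0 h were LOC_Os03g08930, at 0.99 FPKM, and LOC_Os11g45710, at 0.96 FPKM. Just outside it, and otherwise alike, were LOC_Os03g12140 at 1.02 FPKM and LOC_Os02g11930 at 1.03 FPKM. At 24 h LOC_Os03g27390 and LOC_Os09g37480 were just inside, at 10.21 and 10.22 FPKM. LOC_Os11g13930 and LOC_Os01g70690 were just outside, at 9.79 and 9.74 FPKM. At the lower edge of the band the ratios were 0.673 for LOC_Os03g53860 and 0.678 for LOC_Os05g01790 inside, against 0.651 for LOC_Os02g18650 and 0.648 for LOC_Os05g33410 outside. At the upper edge they were 1.4997 for LOC_Os06g27560 and 1.49 for LOC_Os06g48355 inside, against 1.52 both for LOC_Os04g50880 and for LOC_Os03g02380 outside. None of these neighbouring values can be called different from each other, as their error is unknown.

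The level in the dry seed was low in most of the 75 but seldom nil. It was under 0.5 FPKM in 44 of them. A value of 0 was listed for 5, or 6.67%. Of the 64 loci chosen in the same way but more than 1.5-fold higher at 48 h, 37 were under 0.5 FPKM and 7.81% were listed at 0. Of the 71 under 0.67 of their 24 h level, 35 were under 0.5 FPKM and 4.23% were listed at 0. Of the 97 loci under 1 FPKM until 24 h and at 10 FPKM or more at 48 h, 20.6% were listed at 0. Over the 20915 loci, chosen by no ceiling at 0 h, 3064 were under 0.5 FPKM and 2.65% were listed at 0. Besides LOC_Os02g11900 and LOC_Os06g48355, the 5 level loci listed at 0 were LOC_Os06g20150, at 22.3 and then 17.1 FPKM, LOC_Os06g09688, at 10.8 and 11.7 FPKM, and LOC_Os09g37480, at 10.2 and 9.79 FPKM. A listed 0 can be a failed estimate, so no fold is given for these 5, and 3 of them are on chromosome 6. The files give no read totals, and the counting error of the low values at 0 h is thus unknown.

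With the band of 0.67 to 1.5, loci that came on in the first day were divided almost evenly between level, higher and lower. In all, 210 loci were under 1 FPKM at 0 h and at 10 FPKM or more at 24 h. Of these 75, or 35.7%, stayed in the band, 64, or 30.5%, were more than 1.5-fold higher at 48 h than at 24 h, and 71, or 33.8%, were at less than 0.67 of their 24 h level. Over all 6744 loci at 10 FPKM or more at 24 h, 44.2% were in the band, 11.9% above it and 43.9% below it. Being above the band was thus more frequent among the 210 than among all 6744, and being in or below it less frequent. The same order held in all 4 rescalings tried, in which 31.2% to 37.0% of such newly present loci and 14.0% to 20.2% of all loci lay above the band. Of the loci at 1 to 10 FPKM in the dry seed, 49.9% were in the band and 15.3% above it. Of those that stood at 100 FPKM or more in the dry seed, 28.0% were in the band and 60.5% below it. These shares come from the contrast that chose the loci, and part of their order can follow from how the classes were formed.

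**Figure D3:**
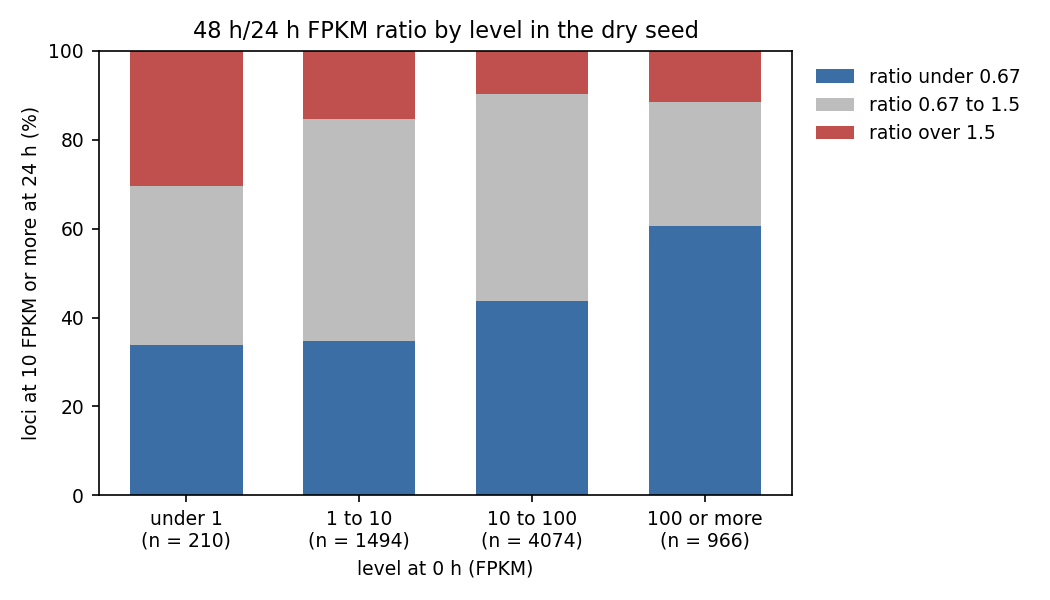
Share of loci, in percent, whose 48 h/24 h FPKM ratio was under 0.67, from 0.67 to 1.5, or over 1.5, among loci at 10 FPKM or more at 24 h, by their level in the dry seed in FPKM. The leftmost bar holds the 210 loci under 1 FPKM at 0 h, of which 35.7% were level and 30.5% higher, against 11.6% higher in the rightmost bar.

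Newly present loci of high abundance at 24 h stayed level less often than the others, by count. Of the 210 loci, 44 of the 116 at 10 to 20 FPKM were in the band, or 37.9%, and 24 of the 60 at 20 to 50 FPKM, or 40.0%, but 7 of the 34 at 50 FPKM or more, or 20.6%. In that last class 17 loci were below the band and 10 above it. The median level at 24 h was 18.3 FPKM in the level loci, 16.0 FPKM in those above the band and 22.3 FPKM in those below it. Their median level in the dry seed was 0.37, 0.395 and 0.51 FPKM. The class is read from the 24 h value that is also the base of the ratio, so this order is a description and was not tested. The split by 24 h level was not made over all loci. Whether the order is particular to newly present loci is thus not known.

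Seen from the germinated seed, the level loci were a minority of the loci newly present at 48 h. At 48 h, 510 loci that had been under 1 FPKM in the dry seed were at 10 FPKM or more. Of these, 69 were level loci, and the other 6 of the 75 had slipped under 10 FPKM. Only 162 of the 510 had been at 10 FPKM or more at 24 h. A further 251 had been between 1 and 10 FPKM at 24 h, and 97 had still been under 1 FPKM.

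The 75 loci were spread over all 12 chromosomes. Chromosome 2 held 14 and chromosome 3 held 12, or 18.7% and 16.0% of the set, where those chromosomes held 11.8% and 13.3% of the 20915 loci. Chromosome 1 held 7, or 9.33%, against 14.0% of the 20915. Per locus tested the share was highest on chromosome 2, at 0.567%, and on chromosome 10, at 0.547%, and lowest on chromosome 8, at 0.215%. With 3 to 14 loci per chromosome these counts are too small to order the chromosomes.

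By the order of the IDs, 5 of the 75 lay next to another locus that came on by 24 h, and 6 were within 5 IDs of one. Loci that came on by 24 h were 210 of all 55986. How often loci in general lie next to one was not counted. Next to each other lay 2 pairs of the 75. LOC_Os10g40730 and LOC_Os01g53800 passed above the band when the libraries were rescaled to the same sum without LOC_Os09g00999, the most abundant locus. No level loci then lay next to each other. The pair of LOC_Os10g40720 and LOC_Os10g40730 was flanked by LOC_Os10g40710, at 0.10, 1.30 and 9.90 FPKM, and by LOC_Os10g40740, at 0.25, 5.43 and 5.17 FPKM. LOC_Os10g40700, just before them, was at 7.25, 302 and 223 FPKM, the most abundant of the stretch, and missed the set through its level in the dry seed alone. All 5 of these neighbouring IDs were thus higher at 24 h than at 0 h, and LOC_Os10g40710 alone was several times higher again at 48 h. The stretch was bounded after its values were seen. The next IDs on either side were under 1 FPKM throughout. LOC_Os10g40680 was at 0.16, 0.71 and 0.32 FPKM, and LOC_Os10g40770, lower at 24 h, was at 0.52, 0.14 and 0.22 FPKM.

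Around LOC_Os10g40480, earlier on the same chromosome, the neighbours that stood at 10 FPKM or more at 24 h were higher again at 48 h. LOC_Os10g40470 was listed at 0 in the dry seed and stood at 12.3 and 106 FPKM later, a ratio of 8.64. LOC_Os10g40430 was at 0.06, 20.7 and 129 FPKM, and LOC_Os10g40530 was at 0.15, 77.8 and 268 FPKM, with ratios of 6.25 and 3.45. LOC_Os10g40440 was at 2.51, 1498 and 2857 FPKM, a ratio of 1.91. Against these, LOC_Os10g40480 had a ratio of 1.24, inside the band as deposited but above it, at 1.509, when the libraries were rescaled to the same sum without LOC_Os09g00999, the most abundant locus. Other neighbours were under 10 FPKM at 24 h. LOC_Os10g40460, at 0, 2.09 and 14.8 FPKM, and LOC_Os10g40520, at 0.09, 2.67 and 64.8 FPKM, were higher at each step. So was LOC_Os10g40540, at 5.59, 8.7 and 12.8 FPKM. LOC_Os10g40490 was at 0.27, 0.50 and 0.88 FPKM, LOC_Os10g40450 at 0.20, 0.44 and 0.21 FPKM, and LOC_Os10g40510 at 0.06, 0 and 18.1 FPKM. If these loci are near-identical copies, the division of shared reads between them could move such values, and the files do not show whether they are.

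The pair on chromosome 1 was of low abundance. LOC_Os01g53790 was at 0.19, 13.03 and 12.6 FPKM and LOC_Os01g53800 at 0.07, 11.7 and 15.8 FPKM. The next IDs, LOC_Os01g53810 at 5.17, 22.8 and 10.9 FPKM and LOC_Os01g53820 at 1.55, 10.2 and 4.69 FPKM, were highest at 24 h. Both were at less than 0.67 of that level at 48 h. The stretch was mixed, however. LOC_Os01g53830, which follows, was lower at 24 h, at 3.33, 0.53 and 0.33 FPKM. So was LOC_Os01g53779, directly before the pair, at 1.34, 0.96 and 0.63 FPKM. Further out, LOC_Os01g53750, at 2.13, 24.7 and 15.6 FPKM, and LOC_Os01g53840, at 1.21, 2.45 and 3.14 FPKM, were higher at 24 h. LOC_Os01g53760 and LOC_Os01g53770 were nearly silent. LOC_Os02g56700 on chromosome 2 stood between nearly silent IDs. LOC_Os02g56690 before it was at 0, 0.16 and 0.05 FPKM, and LOC_Os02g56710 after it was listed at 0 in all 3 libraries, while LOC_Os02g56680 was at 2.37, 30.0 and 20.9 FPKM.

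**Figure D4:**
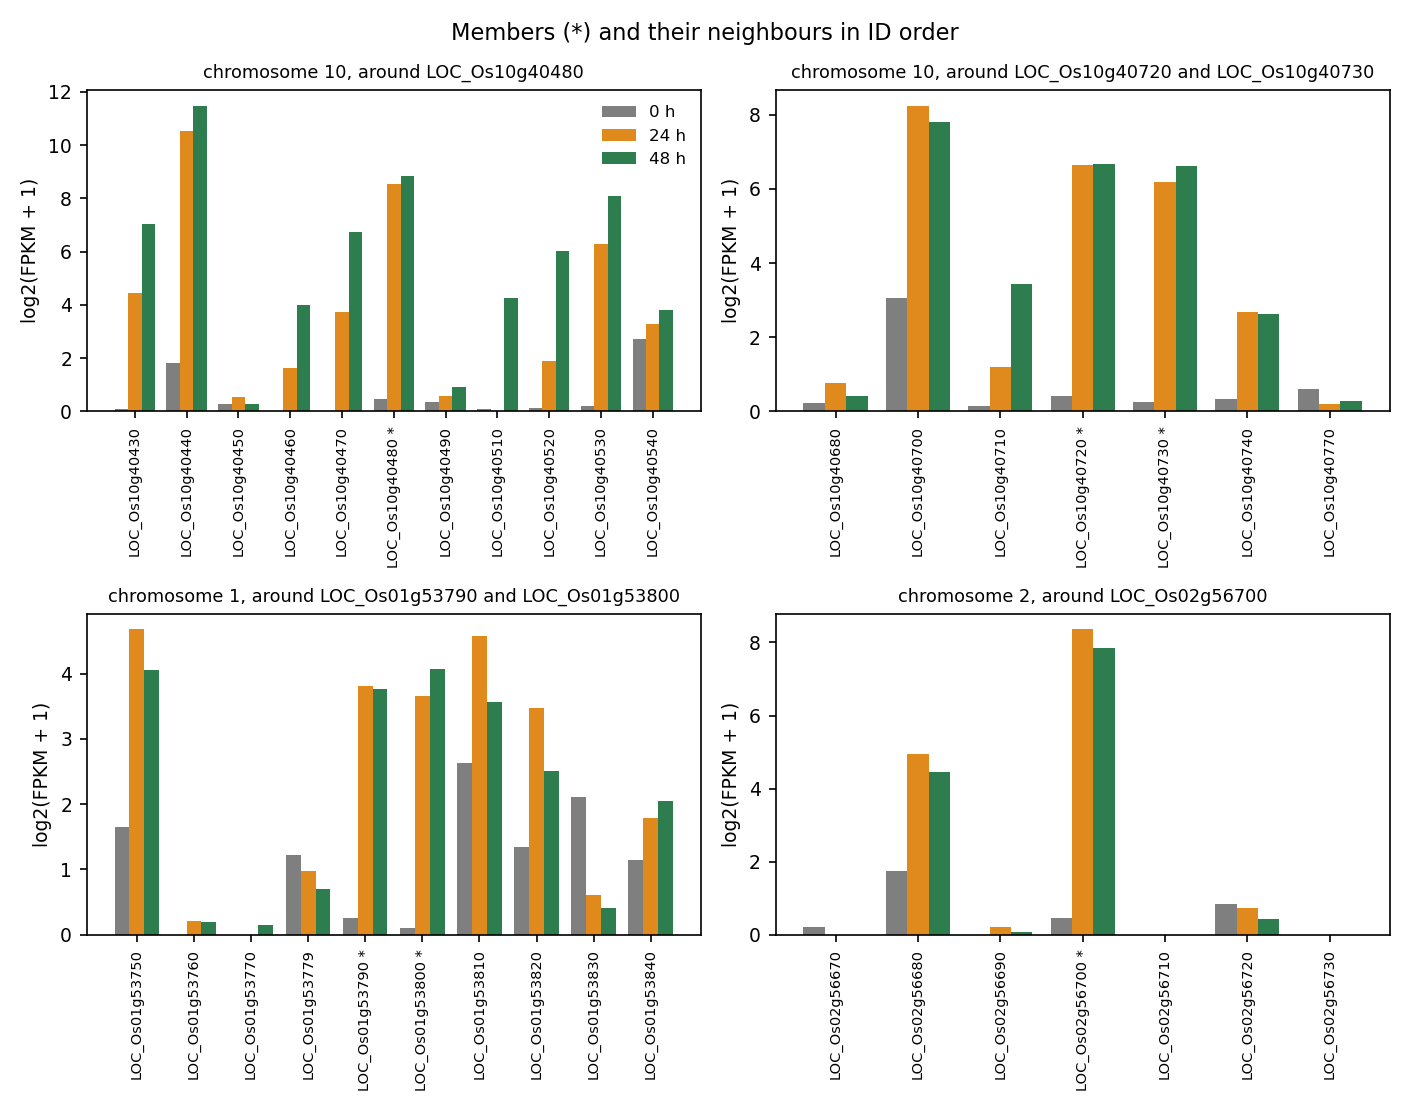
Levels at 0 h, 24 h and 48 h, as log2(FPKM + 1), of loci in ID order around 4 places that hold loci of the set, marked by asterisks, 1 pooled library per bar. LOC_Os10g40480, at 373 and 462 FPKM at 24 h and 48 h, differs less between these libraries than neighbours such as LOC_Os10g40470, at 12.3 and 106 FPKM; LOC_Os02g56700, at 328 and 229 FPKM, stands between nearly silent IDs.

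Over the whole set, neighbours were somewhat more often higher at 24 h than loci in general. The rule did not use the neighbours' values, but neighbours that met the rule themselves were in the set and so were left out. Of the 79 loci directly before or after a level locus in ID order that were not in the set and passed 1 FPKM in at least 1 library, 22, or 27.8%, were at least 2-fold higher at 24 h than at 0 h on the log2(FPKM + 1) scale, against 17.7% of the 20915 loci. At least 2-fold lower were 7, or 8.86%, against 15.4%. Their median log2 difference was -0.02, just below the 0.06 of all loci, so the excess lay in a minority of neighbours. At 1 to 5 IDs away 96 of 356 were higher, or 27.0%, and at 6 to 10 IDs away 52 of 329, or 15.8%. The share was 35.8% among the direct neighbours of the 64 loci above the band and 30.6% among those of the 71 below it. The pattern was thus not particular to level loci. Each share left out loci of its own class only, so these shares were not formed quite alike. Neighbours of 1 stretch share their place and are not independent, and no test was made.

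Of the 75 loci, 17 had more than 1 listed isoform, or 22.7%, against 28.0% of the 20915 loci. In none of the 17 was a different isoform the most abundant at 48 h than at 24 h. Over all 1148 loci with several isoforms that were at 10 FPKM or more at 24 h and in the same band of ratios, this was so in 9.41%, a share at which 17 loci would hold very few cases. The main isoform held 90% or more of the locus at 24 h in 9 of the 17, which was not counted over all loci. The rule used summed levels only, and a level sum could hide isoforms that moved against each other.

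Such opposite movement was seen in several loci. In LOC_Os02g11970, LOC_Os02g11970.1 went from 7.14 to 13.8 FPKM between 24 h and 48 h while LOC_Os02g11970.2 went from 5.72 to 2.47 FPKM, so that the main isoform went from 55.5% to 84.8% of the locus. In LOC_Os02g04170 the isoform LOC_Os02g04170.1 was at 6.65 and 2.07 FPKM and LOC_Os02g04170.3 at 11.7 and 14.2 FPKM. In LOC_Os11g31900 the main isoform LOC_Os11g31900.1 was at 14.6 and 22.5 FPKM and LOC_Os11g31900.2 at 7.80 and 3.22 FPKM. In each of these 3 loci the isoform that was already the main one was higher at 48 h and the minor one lower. LOC_Os04g08740 also ended with nearly all of its level in the main isoform, which held 72.3% at 24 h and 97.0% at 48 h.

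Other loci went the opposite way, from 1 isoform towards more. LOC_Os03g27390.2 was listed at 0 at 24 h and reached 3.05 FPKM a day later, or 30.9% of its locus, while LOC_Os03g27390.1 was at 10.2 and 6.82 FPKM. LOC_Os11g05690.2 went from 0.71 to 5.68 FPKM and from 3.79% to 23.8% of the locus, beside LOC_Os11g05690.1 at 17.4 and 18.0 FPKM. In LOC_Os03g53860, which ranked 3rd in the set, LOC_Os03g53860.4 was at 121 and 68.8 FPKM and LOC_Os03g53860.2 at 1.39 and 10.8 FPKM. In all, an isoform's share moved by 20 points or more in 5 of the 17 loci and by 10 points or more in 9. Of the 32 isoforms of these loci at 1 FPKM or more at 24 h or 48 h, 15 were outside the band that their locus's sum met. Such moves were not counted over all loci, so whether they were more frequent in the set is not known. Values of single isoforms depend on the division of shared reads, of which the files hold no record.

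**Figure D5:**
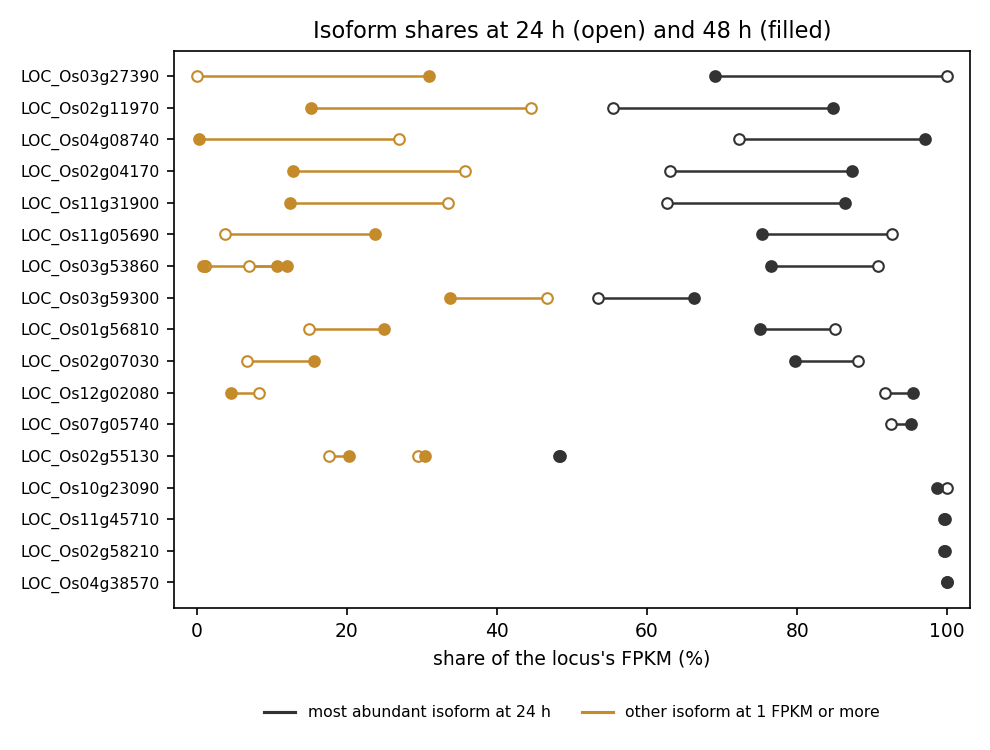
Share of each isoform in its locus's FPKM, in percent, at 24 h (open circles) and 48 h (filled circles), for the 17 loci with more than 1 isoform, 1 pooled library per circle; isoforms under 1 FPKM at both times are left out. The main isoform of LOC_Os02g11970 went from 55.5% to 84.8% and that of LOC_Os03g27390 from 100% to 69.1%, and the lower loci in the plot kept their shares.

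Which loci counted as level depended on how the libraries were scaled to each other. The summed FPKM was 881252 at 0 h, 580571 at 24 h and 535327 at 48 h, and 1 locus, LOC_Os09g00999, held 5.65%, 10.7% and 20.4% of it. Of the 75 loci, 67 stayed in the set with each library rescaled to the same sum, 52 when that sum left out LOC_Os09g00999, and 65 each under median-of-ratios factors and under a trimmed mean of log ratios. In all 4 rescalings 49 loci stayed and 26 left in at least 1. The loci that left were mostly those already higher at 48 h: without LOC_Os09g00999, 23 passed above the band, and LOC_Os10g40480 was among them with a ratio of 1.509. LOC_Os10g40730, at 1.6505, and LOC_Os01g53800, at 1.6458, also passed above the band there, so neither pair of neighbouring loci stayed whole. Of the more abundant loci, LOC_Os02g56700, LOC_Os03g53860, LOC_Os10g40720, LOC_Os03g01260 and LOC_Os03g25280 stayed level in all 4. Loci from outside the 75 also came in. They numbered 54 with the same sum, 70 when that sum left out LOC_Os09g00999, and 6 in each of the other rescalings.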

How the data were processed

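Poly(A)-enriched RNA of whole seeds was sequenced in 3 libraries, 1 each at 0, 24 and 48 h, per the labels' protocols. The authors deposited FPKM values per transcript isoform, from isoform-level output per the file headers. The submitters' processing notes list FastQC, edgeR 2.3.52 and RSEM 1.1.11 with no role. Not given in the sources used here are the aligner, build, annotation and any scaling of libraries, and depth is unknown.

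From the 66338 isoforms, a sum was taken for each locus, whose ID is the isoform's ID less its suffix. Differences used log2(FPKM + 1), which understates changes of low loci, over loci that reached 1 FPKM in any library. Called loci differed at least 2-fold. With 1 library per stage no test was run. Neighbours are adjacent IDs on a chromosome. Loci were named by fixed rules: the 20 highest means, pairs of neighbouring members, members listed at 0 in the dry seed, the 2 loci on each side of each threshold, and isoform exchanges. No member's main isoform changed, so loci shown for their isoform shares, flanking loci and the most even ratios were chosen after their values were seen. The members and lists were chosen with earlier results of these data known. No ID of a member matched the reference table (39387 genes, assembly ASM3414082v1, 1 match over all loci), so planned annotation classes gave no value. The code of the rule was checked on simulated loci placed clear of its limits at 24 h and in the ratio. None was placed near those limits, so the check bears on the code alone. Python 3.11.15, numpy 2.4.6, pandas 2.3.3 and matplotlib 3.10.9 were used.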

Additional observations from a re-analysis of the deposited data

How the results depend on the processing

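With 1 library per stage, leaving out a replicate was not possible. No paired analysis was possible because the biological replicates of each stage were combined in 1 library. Absolute depth is unknown, so the counting error of low values cannot be given. The difference of 24 h and 0 h stayed past 2-fold in all 450 alternative values of the 75 loci, from 1.36 to 9.66 on the log2 scale, which the selection nearly fixes. Of 80 alternative values of the counts, 40 stayed within 1.5 times those reported, among them every one under the trimmed mean of log ratios (30% trimmed at each end), under median-of-ratios factors, without the filter, with a filter of 5 FPKM and with a pseudocount of 0.1 FPKM. The others follow. Rescaling to the same sum gave 121 level loci, 5 of them at 100 FPKM or more at 24 h, 44 direct neighbours higher at 24 h, and 1 change of main isoform. Leaving LOC_Os09g00999 out of the sum gave 122 level loci, 5 at 100 FPKM or more, 0 next to each other, 48 neighbours higher, 120 loci above the band and 1 change of main isoform. A band from 0.8 to its inverse gave 40 level loci, 1 at 100 FPKM or more, 0 next to each other and 12 neighbours higher. A band of 0.5 to 2 gave 129 level loci, 6 at 100 FPKM or more, 38 neighbours higher, 37 loci above it, 44 below it and 1 change of main isoform. A floor of 5 FPKM at 24 h gave 187 level loci, 43 neighbours higher, 145 loci above the band, 130 below it and 6 changes of main isoform. A floor of 20 FPKM gave 31, 10, 24 and 39 in the order of the first 4 of these, with 2 loci next to each other. A ceiling of 0.5 FPKM at 0 h gave 44, 14, 37 and 35 in that order, and one of 2 FPKM gave 142, 41, 100 and 124. Per isoform, 133 isoforms were below the band; changes of main isoform have no value there. A pseudocount of 5 FPKM gave 14 neighbours higher. The stricter or looser thresholds change the number of loci by construction. Both rescalings to the same sum likewise change the number of loci on by 24 h. They multiplied the 0 h values by 0.755 and 0.712 and the 24 h values by 1.15 and 1.14. Loci on by 24 h then numbered 304 and 324, against 210 as reported. For the other counts under these rescalings the cause was not tested. In every one of the 15 alternatives the share of direct neighbours higher at 24 h was above that of all loci. The gap was least with the same sum (33.1% against 28.3%) and largest with the floor of 20 FPKM (34.5% against 17.7%). These alternatives reuse many of the same loci and libraries, so they are not independent of the reported share or of each other.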
